A study of Mus musculus with 50 samples.

Results

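Disease-associated and neonatal amoeboid microglia genes are 10 genes known as markers of microglia in the first days after birth, around plaques, in demyelinated tissue or in the ageing brain. In these samples 5 of them were higher in pups than in adults. The set held Apoe, Lpl, Fabp5, Spp1, Lgals3, Cst7, Gpnmb, Cd9, Clec7a and Itgax. Its members were taken by gene symbol from the 53700 genes of the count files, 1 row for each symbol, and all 10 were among the 16696 genes that passed the filter on low values and were tested. They were measured by mRNA sequencing of hippocampal microglia from 50 male C57BL/6J mice, sorted as CD45int CD11b+ cells. Early-life stress (ELS) was limited bedding and nesting material from postnatal day (P) 2 to P9, and control (CTR) litters kept standard material. Uninjected pups were killed at P9 and made up the groups P9-CTR (12 mice) and P9-ELS (13 mice). Adults of a separate cohort were injected intraperitoneally at P200 with phosphate-buffered saline (PBS) or with 1 mg/kg lipopolysaccharide (LPS), a bacterial cell wall component, and killed 3 h later. There were 7 mice each in P200-CTR-PBS and P200-CTR-LPS, 6 in P200-ELS-PBS and 5 in P200-ELS-LPS. Myelin was removed on Percoll in adult brains only, and only adults were injected. Age, cohort, injection and the Percoll step thus cannot be told apart. The labels give each mouse a name such as P200_5.3_CTR_LPS. In it the number before the point is read here as the nest and the number after it as the pup, although the labels do not define them.

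As background, amoeboid microglia of the neonatal brain are round, dividing and phagocytic, and clear dying cells and excess synapses and oligodendrocytes in the developing white matter. Disease-associated microglia appear where lipid-rich debris collects. Their full programme depends on the receptor TREM2, with lipid handling, lysosomal and adhesion genes raised and homeostatic genes such as Tmem119 lowered. The members fall into 3 roles. Apoe, Lpl and Fabp5 move lipids, Spp1, Lgals3 and Cst7 encode secreted or lysosomal proteins, and Gpnmb, Cd9, Clec7a and Itgax encode membrane proteins.

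Promoters, from 250 bases before to 50 bases after the start of the canonical transcript in the GENCODE annotation of build GRCm39, are shown for the pair of members that rose after LPS in both CTR and ELS mice (Spp1 and Fabp5) and for the pair that held a match to the AP-1 motif TGANTCA (Gpnmb and Itgax). All 4 lie on the plus strand, Spp1 at chr5:104581915-104582214, Fabp5 at chr3:10077352-10077651, Gpnmb at chr6:49013176-49013475 and Itgax at chr7:127728418-127728717. Capitals mark the AP-1 matches.
Spp1: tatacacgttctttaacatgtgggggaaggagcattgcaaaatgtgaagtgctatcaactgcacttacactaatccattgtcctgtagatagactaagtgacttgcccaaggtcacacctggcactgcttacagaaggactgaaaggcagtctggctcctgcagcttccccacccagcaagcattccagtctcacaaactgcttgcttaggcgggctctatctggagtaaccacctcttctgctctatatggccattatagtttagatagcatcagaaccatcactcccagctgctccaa
Fabp5: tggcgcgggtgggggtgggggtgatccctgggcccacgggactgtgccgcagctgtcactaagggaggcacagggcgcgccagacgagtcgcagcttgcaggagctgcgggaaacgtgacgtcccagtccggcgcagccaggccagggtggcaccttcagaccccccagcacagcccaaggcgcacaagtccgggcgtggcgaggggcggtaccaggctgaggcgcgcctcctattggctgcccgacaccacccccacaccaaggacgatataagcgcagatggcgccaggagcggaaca
Gpnmb: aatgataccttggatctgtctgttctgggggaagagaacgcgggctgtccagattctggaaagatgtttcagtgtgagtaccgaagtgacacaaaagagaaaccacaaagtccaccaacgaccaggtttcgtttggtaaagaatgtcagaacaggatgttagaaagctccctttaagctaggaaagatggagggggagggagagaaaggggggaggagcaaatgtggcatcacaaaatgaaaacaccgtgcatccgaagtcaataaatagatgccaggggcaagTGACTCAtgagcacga
Itgax: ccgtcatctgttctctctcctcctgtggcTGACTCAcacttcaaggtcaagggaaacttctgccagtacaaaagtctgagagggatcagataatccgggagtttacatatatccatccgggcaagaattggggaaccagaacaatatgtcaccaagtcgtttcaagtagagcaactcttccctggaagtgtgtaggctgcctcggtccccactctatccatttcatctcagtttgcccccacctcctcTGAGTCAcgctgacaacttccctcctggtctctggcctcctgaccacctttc

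Both strands were searched. An AP-1 match was found in 2 of the 10 members and in 5.24% of 13077 promoter windows of this length. The PU.1 core GAGGAA was found in Lpl and Clec7a and in 27.5% of all windows, and the TATA box letters TATAAA in Lpl, Cst7 and Clec7a and in 8.19% of all windows. The E-box CACGTG was in none of the 10 windows, against 9.95% of all windows. In Apoe, Lpl and Lgals3 the canonical start lies inside the annotated gene. These are matches of letters, not sites. Spp1 and Fabp5, whose values after LPS are given further on, held none of the 4 motifs.

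Total counts ran from 5152838 to 42231258 per mouse, with a median of 19960409. Levels are given as CPM, counts relative to the library total, scaled by the trimmed mean of M-values (TMM), so that they compare a gene between mice. In 4 mice over 10% fewer genes were detected than in the median mouse of their group (P9_19.2_ELS, P9_19.3_ELS, P200_1.1_CTR_PBS and P200_20.2_ELS_PBS), and every count of called members given here was the same without these 4 mice. Mouse P200_1.1_CTR_PBS lay outside the range of its group for 8 of the 10 members, 6 times below it and 2 times above it. The summed level of 8 microglia markers was 35708 to 63223 CPM in P9 mice and 63541 to 81086 CPM in P200 mice, so the sorted cells carried the defining transcripts of microglia at both ages. In bulk samples such as these, fewer cells of a type and less RNA per cell cannot be told apart.

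Microglia of pups and adults differed in 5 members in either condition. In CTR mice, 5 of the 10 members were differentially expressed genes (DEGs, adjusted p under 0.05 and a log2 fold change beyond 1 in either direction) and lower in P200-CTR-PBS than in P9-CTR microglia, namely Apoe, Lpl, Fabp5, Spp1 and Gpnmb. Of all tested genes, 18.5% were DEGs in that direction. In ELS mice the same 5 were lower at P200, against 17.5% of all tested genes. Gpnmb is among these 5, although it passed the filter on low values only through the pups. No member was a DEG with a higher level at P200, where the shares over all genes were 7.98% and 8.68%. The median log2 fold change of the members was -2.60 in CTR and -3.38 in ELS mice, beside -0.09 and -0.01 over all tested genes. No member lay near these medians. The 5 lower members were at -4.90 or below in CTR and -5.94 or below in ELS mice. All others were at -0.30 or above and -0.81 or above.

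Apoe encodes the main lipid carrier of the brain, which takes up cholesterol released from cells (chr7, 19430034 to 19434947, minus strand). Its level in P9-CTR mice was 6275 CPM in the lowest, 7662 in the median and 12580.2 in the highest mouse. In P200-CTR-PBS mice these values were 23.3, 43.6 and 103 CPM. The lowest pup thus lay far above the highest adult. Apoe was 148-fold lower in the adult (log2 fold change -7.21, SE 0.33, adjusted p = 5.83e-24, edgeR's quasi-likelihood test). In ELS mice the level went from 3427, 7207 and 12087 CPM at P9 to 41.7, 58.7 and 102 CPM after PBS (log2 fold change -6.89).

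Lpl encodes lipoprotein lipase, which frees fatty acids from lipoproteins (chr8, 69284603 to 69360100, plus strand). Its level was 200, 351 and 444 CPM (lowest, median and highest) in P9-CTR mice and 1.02, 5.98 and 11.6 CPM in P200-CTR-PBS mice. This was a 54.7-fold difference with no overlap (log2 fold change -5.77, SE 0.37, adjusted p = 3.49e-18, edgeR). Fabp5 encodes a carrier of fatty acids inside the cell (chr3, 10077602 to 10081674, plus strand). It had 9.69, 12.0 and 15.7 CPM in P9-CTR and 0, 0.389 and 1.43 CPM in P200-CTR-PBS mice. The groups again did not overlap, and Fabp5 was 29.9-fold lower in the adult (log2 fold change -4.90, SE 0.50, adjusted p = 1.59e-11, edgeR). The highest adult was P200_15.1_CTR_PBS, and without it the log2 fold change was -5.53. In ELS mice the log2 fold changes of Lpl and Fabp5 were -5.94 and -6.43, and the latter was -7.07 without mouse P200_4.1_ELS_PBS. Fabp5 has 4 near copies in the genome and Cd9 has 1 (at least 90% identity over at least 300 bases). The authors counted uniquely aligned reads only, so reads that fit several copies were not counted.

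Spp1 encodes osteopontin, a secreted protein that binds integrins and CD44 (chr5, 104582165 to 104589235, plus strand). It had 85.6, 231 and 319 CPM in P9-CTR mice and 0, 0.874 and 2.35 CPM in P200-CTR-PBS mice, so that the lowest pup was above every adult. The level was 195-fold lower at P200 (log2 fold change -7.61, SE 0.59, adjusted p = 1.73e-15, edgeR). Lgals3 encodes galectin-3, a sugar-binding protein that gathers at damaged lysosomes (chr14, 47605208 to 47623624, plus strand). Its medians were 3.78 CPM in P9-CTR and 3.93 CPM in P200-CTR-PBS mice, and the log2 difference of 0.12 did not pass the test (adjusted p = 0.839, edgeR). Cst7 encodes cystatin F, an inhibitor of lysosomal cathepsins (chr2, 150412284 to 150420864, plus strand). Its medians were 10.5 and 7.79 CPM, with overlapping ranges and a log2 difference of -0.30 (adjusted p = 0.476, edgeR).

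Gpnmb encodes a membrane glycoprotein of lysosomes and the cell surface (chr6, 49013426 to 49047863, plus strand). It was measured almost only in pups, with 3.54, 14.4 and 39.1 CPM in P9-CTR mice. In P200-CTR-PBS mice 9 counts were found in all, in 4 of 7 mice and with at most 0.213 CPM in a mouse. Gpnmb was 245-fold lower in the adult (log2 fold change -7.94, SE 1.01, adjusted p = 7.22e-09, edgeR), and it passed the filter on low values only through the pups, so a difference with age was built into its being tested. In P200-ELS-PBS mice all 24 counts came from mouse P200_11.1_ELS_PBS. With it the log2 fold change against P9-ELS was -6.74. The other 5 mice held 0 counts, and the level without it was at least 763-fold lower than in P9-ELS mice, taking 3 counts over the group as the limit. This and the other counting limits cover counting error only.

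Cd9, a tetraspanin that organises proteins in the plasma membrane and is carried on exosomes (chr6, 125437210 to 125471778, minus strand), was the single member with a higher adult level by adjusted p alone. Its level was 824, 1043 and 1312 CPM in P9-CTR and 1594, 1855 and 2346 CPM in P200-CTR-PBS mice. Every adult was above every pup, and the level was 1.80-fold higher (log2 fold change 0.84, SE 0.12, adjusted p = 1.69e-07, edgeR), which is under the fold required of a DEG. By adjusted p alone 44.1% of all tested genes differed with age in CTR and 42.2% in ELS mice. In ELS mice the Cd9 difference was 0.40 on the log2 scale (SE 0.13, adjusted p = 0.0103, edgeR) and the ranges overlapped. The overlap came from pup P9_19.2_ELS, a mouse with few detected genes, at 2634 CPM. The other ELS pups had 1014 to 1272 CPM and the P200-ELS-PBS mice 1550 to 1750 CPM. With 1 mouse left out at a time this log2 difference was 0.38 to 0.54. Over the other alternative fits it was 0.34 to 0.51 and its adjusted p reached 0.0783, so it did not pass in every fit. A predicted gene on the opposite strand within Cd9, Gm26728, had 14.0 to 15.06% of the mean Cd9 level in all 6 groups. Whether the counting used strand is not given in the sources used here, so reads of this pair may not be told apart.

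Clec7a encodes dectin-1, a receptor for fungal glucans (chr6, 129438554 to 129449742, minus strand). Its medians were 16.5 CPM in P9-CTR and 16.6 CPM in P200-CTR-PBS mice, a log2 difference of 0.13 (adjusted p = 0.666, edgeR). In ELS mice Clec7a was lower at P200 by adjusted p (log2 fold change -0.60, SE 0.24, adjusted p = 0.0416, edgeR), without reaching the fold of a DEG. With 1 mouse left out at a time this adjusted p reached 0.0811 (edgeR), so it did not pass in every such fit. Itgax encodes CD11c, an integrin chain used to mark dendritic cells and activated microglia (chr7, 127728668 to 127749829, plus strand). It had medians of 6.5 CPM in P9-CTR and 4.64 CPM in P200-CTR-PBS mice and a log2 difference of -0.25 (adjusted p = 0.704, edgeR). In Clec7a, Itgax, Lgals3 and Cst7 the pup and adult ranges overlapped. The 95% intervals of their log2 differences in CTR mice ran from -0.31 to 0.58 for Clec7a, -1.2 to 0.69 for Itgax, -0.69 to 0.94 for Lgals3 and -0.92 to 0.33 for Cst7.

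Counted by ranges alone, 5 members were lower in every P200-CTR-PBS mouse than in every P9-CTR mouse and 1, Cd9, was higher, beside 10.5% and 6.56% of all tested genes. In ELS mice the 5 lower members did not overlap either (7.03% of all tested genes). Both counts of 5 include Gpnmb, whose difference with age was built into its being tested. Markers of other cells also moved with age. The summed level of 6 border-associated macrophage markers was 470 to 919 CPM in pups and 1.80 to 11.8 CPM in adults, with 6 of 6 markers lower in CTR and 4 of 6 in ELS mice. For 8 neuron markers the sums were 40.2 to 197 CPM and 2.54 to 15.15 CPM, for 7 oligodendrocyte markers 68.4 to 199 CPM and 75.3 to 200.2 CPM, and for 4 oligodendrocyte precursor markers 8.07 to 57.4 CPM and 0 to 2.56 CPM. For 8 astrocyte markers the sums were 125 to 434 CPM and 303 to 620 CPM, but 7 of the 8 were DEGs with lower adult levels in both conditions and 1, Slc1a3, was higher (log2 fold change 1.57 in CTR). For 6 endothelial markers the sums were 0.557 to 46.3 CPM and 30.2 to 99.4 CPM, while of the 5 tested 0 were higher and 2 lower in CTR and 1 was higher and 2 lower in ELS mice. For 8 genes of dividing cells the sums were 816 to 2322 CPM and 41.9 to 78.0 CPM. Border-associated macrophages are known to express Apoe, and the part of these cells and of dividing cells in the age differences of the members was not tested.

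**Figure D1:**
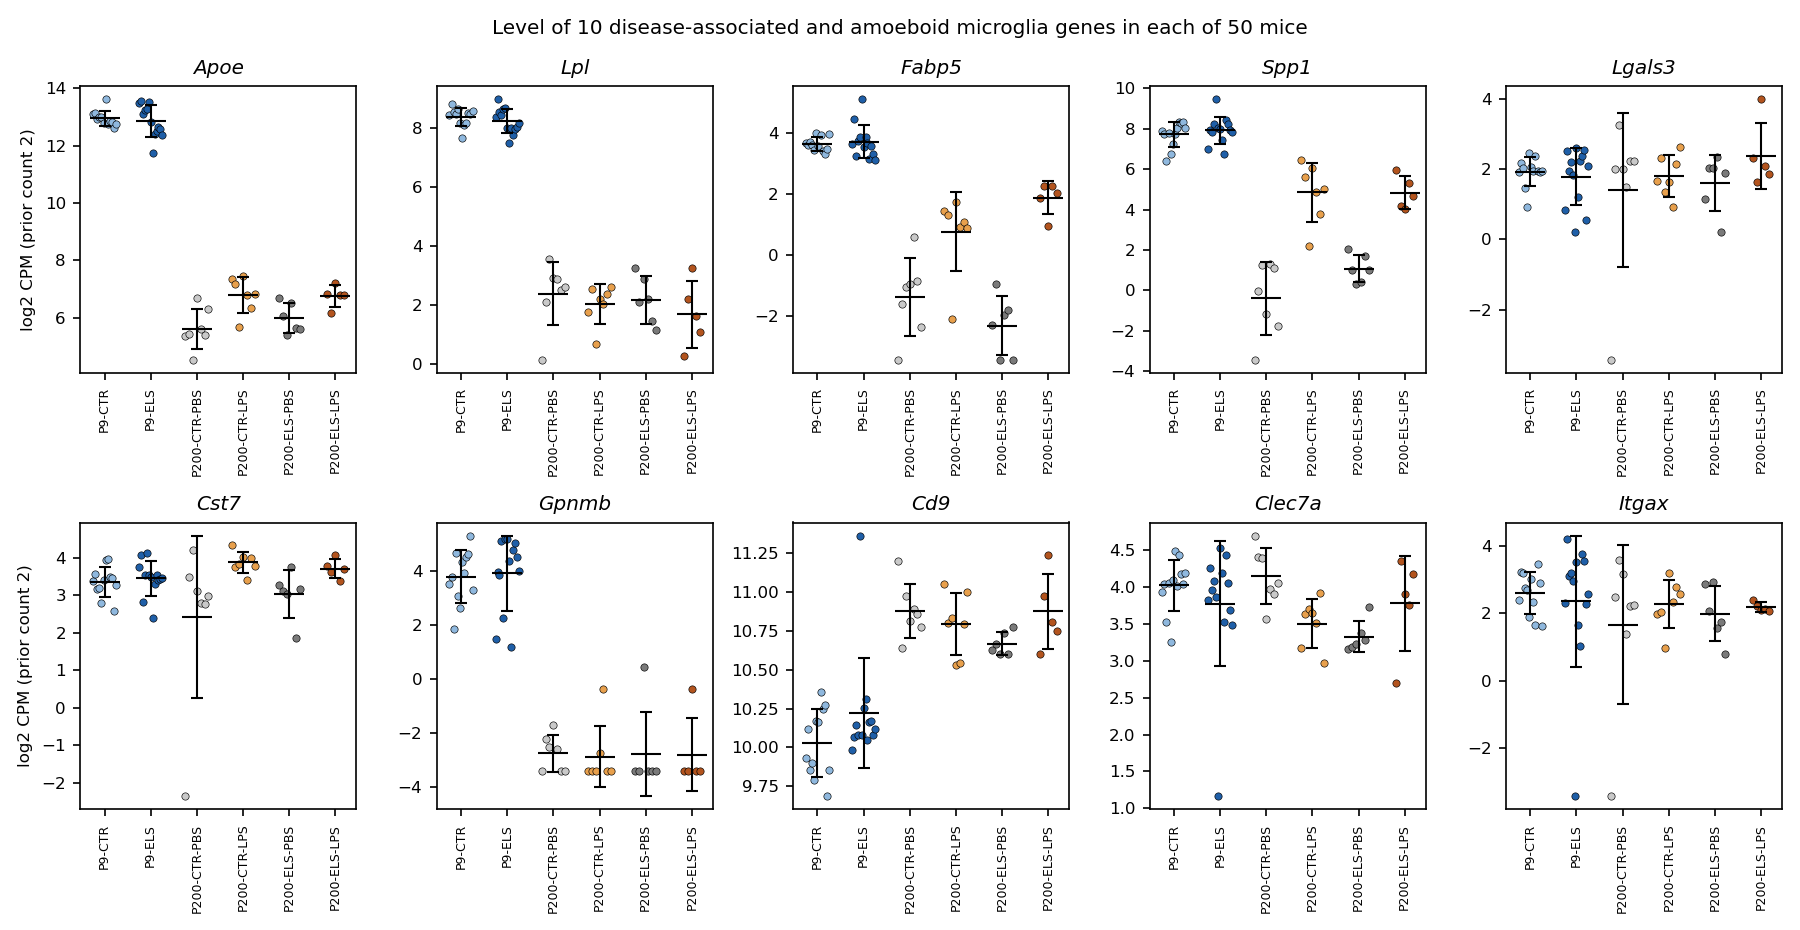
Level of each of the 10 genes in every mouse, as log2 CPM (vertical axis), by group (horizontal axis), where points are mice and bars give the mean ± SD. Apoe, Lpl, Fabp5, Spp1 and Gpnmb have higher means in both P9 groups than in the 4 P200 groups. For Spp1 the highest P200-CTR-LPS mouse (88.9 CPM) lies above the lowest P9-CTR pup (85.6 CPM). The means of Spp1 and Fabp5 are higher after LPS than after PBS, and Cd9 lies higher in P200-CTR-PBS than in P9-CTR mice.

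LPS raised 3 of the 10 members in CTR adults and 2 in ELS adults. Spp1, Fabp5 and Apoe were DEGs with higher levels in P200-CTR-LPS than in P200-CTR-PBS mice, against 6.02% of all tested genes. In ELS mice Spp1 and Fabp5 were (4.69% of all tested genes). No member was a DEG with a lower level (3.6% and 3.17% of all tested genes). With the nest number as a block, 1 member (Spp1) was called in CTR and the count for ELS mice was 2. The injection itself was visible in all treated mice by the summed level of 6 inflammatory genes listed as a check. It was 2434 to 4701 CPM in P200-CTR-LPS and 2267 to 7119 CPM in P200-ELS-LPS mice. After PBS it was 161 to 218 CPM in CTR and 132 to 279 CPM in ELS mice. By group 6 of 6 were higher in both conditions, for example Tnf with log2 fold changes of 6.5 in CTR and 6.59 in ELS mice.

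Spp1 was hardly detected after PBS and clearly present 3 h after LPS. In P200-CTR-LPS mice its level was 4.51, 32.5 and 88.9 CPM (lowest, median and highest), above every P200-CTR-PBS mouse, which had at most 2.35 CPM. This was a 35.0-fold difference (log2 fold change 5.13, SE 0.54, adjusted p = 1.48e-10, edgeR). In ELS mice Spp1 was 1.14, 1.91 and 4.00 CPM after PBS, and 16.3, 17.7, 25.8, 40.3 and 61.2 CPM in the 5 mice after LPS. These groups did not overlap and differed 14.3-fold (log2 fold change 3.84, SE 0.55, adjusted p = 4.88e-07, edgeR). Gm42793, a predicted gene on the same strand that overlaps Spp1, was at 0 in all PBS adults and had 0.715 to 3.67 CPM in P200-CTR-LPS and 0.247 to 2.66 CPM in P200-ELS-LPS mice.

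Fabp5 had 0.143, 2.02 and 3.26 CPM (lowest, median and highest) in P200-CTR-LPS mice, against 0, 0.389 and 1.43 CPM after PBS. It was 4.85-fold higher (log2 fold change 2.28, SE 0.48, adjusted p = 0.000433, edgeR), although 1 LPS mouse lay within the PBS range. Without mouse P200_15.1_CTR_PBS the log2 fold change was 2.90. In ELS mice Fabp5 was 0, 0.137 and 0.427 CPM after PBS and 1.85, 3.54, 3.97, 4.68 and 4.72 CPM after LPS. The 5 LPS mice were all above the 6 PBS mice, 23.1-fold by the fit (log2 fold change 4.53, SE 0.58, adjusted p = 3.60e-08, edgeR), and the log2 fold change was 5.18 without mouse P200_4.1_ELS_PBS. The Fabp5 call in CTR mice was lost (adjusted p = 0.067, log2 fold change 2.22) when only the P200-CTR-PBS and P200-CTR-LPS mice were fitted.

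Apoe had 51.29, 113 and 176 CPM in P200-CTR-LPS mice, a 2.21-fold higher level than after PBS (log2 fold change 1.14, SE 0.26, adjusted p = 0.000999, edgeR) with overlapping ranges. In ELS mice the level after LPS was 71.1, 110.4, 110.4, 113 and 147 CPM against 41.7 to 102 CPM after PBS. This log2 difference of 0.72 (SE 0.29) did not pass the test (adjusted p = 0.0944, edgeR). When the counts of the mice of a nest were summed, the Apoe log2 difference in CTR mice was 0.92, under the fold of a DEG, while its adjusted p was 0.0371 by edgeR.

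The other 7 members were not DEGs after LPS in either condition. Cst7 had log2 differences of 0.80 in CTR (95% interval 0.10 to 1.5, adjusted p = 0.131, edgeR) and 0.60 in ELS mice (-0.19 to 1.39, adjusted p = 0.380). Those of Clec7a were -0.66 (-1.16 to -0.15, adjusted p = 0.0757) and 0.54 (-0.02 to 1.11, adjusted p = 0.238). The Cst7 difference in CTR mice passed without mouse P200_5.2_CTR_PBS (1.11, adjusted p = 0.0311, edgeR). Over all fits with 1 mouse left out it was 0.58 to 1.11, with an adjusted p of up to 0.220 (edgeR). The 5 remaining members had log2 differences between -0.50 (Lpl) and 0.76 (Gpnmb, which rests on 15 counts after LPS, 14 of them in mouse P200_8.3_CTR_LPS) in CTR mice. In ELS mice they were between -0.40 (Gpnmb) and 0.94 (Lgals3, adjusted p = 0.279, edgeR). Lgals3 had 15.9 CPM in mouse P200_11.2_ELS_LPS and 2.98 to 4.87 CPM in the others of that group. With 1 mouse left out at a time its difference was 0.25 to 1.12. Mouse P200_11.2_ELS_LPS lay above the range of its group for 6 members and below it for 2. At an unadjusted p under 0.05, 5 members in CTR and 3 in ELS mice differed, beside 26.5% and 24.4% of all tested genes. By ranges alone, 1 member (Spp1) in CTR and 2 (Spp1 and Fabp5) in ELS mice were higher after LPS without overlap, beside 4.92% and 5.65% of all tested genes.

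Each P200 nest held mice of both injections, which allowed the values to be set side by side within nests. Spp1 and Apoe were higher after LPS in 5 of 5 CTR and 5 of 5 ELS nests. Fabp5 was higher in 4 of 5 CTR and 5 of 5 ELS nests, and Cst7 likewise. The PBS mouse of CTR nest 1 was P200_1.1_CTR_PBS, which had 0.102 CPM of Cst7. Clec7a was higher in 1 of 5 CTR and in 4 of 5 ELS nests. The CTR nest in which Fabp5 was not higher was nest 5, with a mean of 0.314 CPM after PBS and 0.143 CPM in its LPS mouse, P200_5.3_CTR_LPS. That mouse was the lowest of its group for 5 of the 10 members, while its summed level of the 6 LPS check genes, 2803 CPM, lay within the range of 2434 to 4701 CPM of the group. Without it the log2 fold changes were 5.33 for Spp1, 2.48 for Fabp5 and 1.27 for Apoe, and without P200_1.1_CTR_PBS they were 4.91, 2.06 and 1.09.

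**Figure D2:**
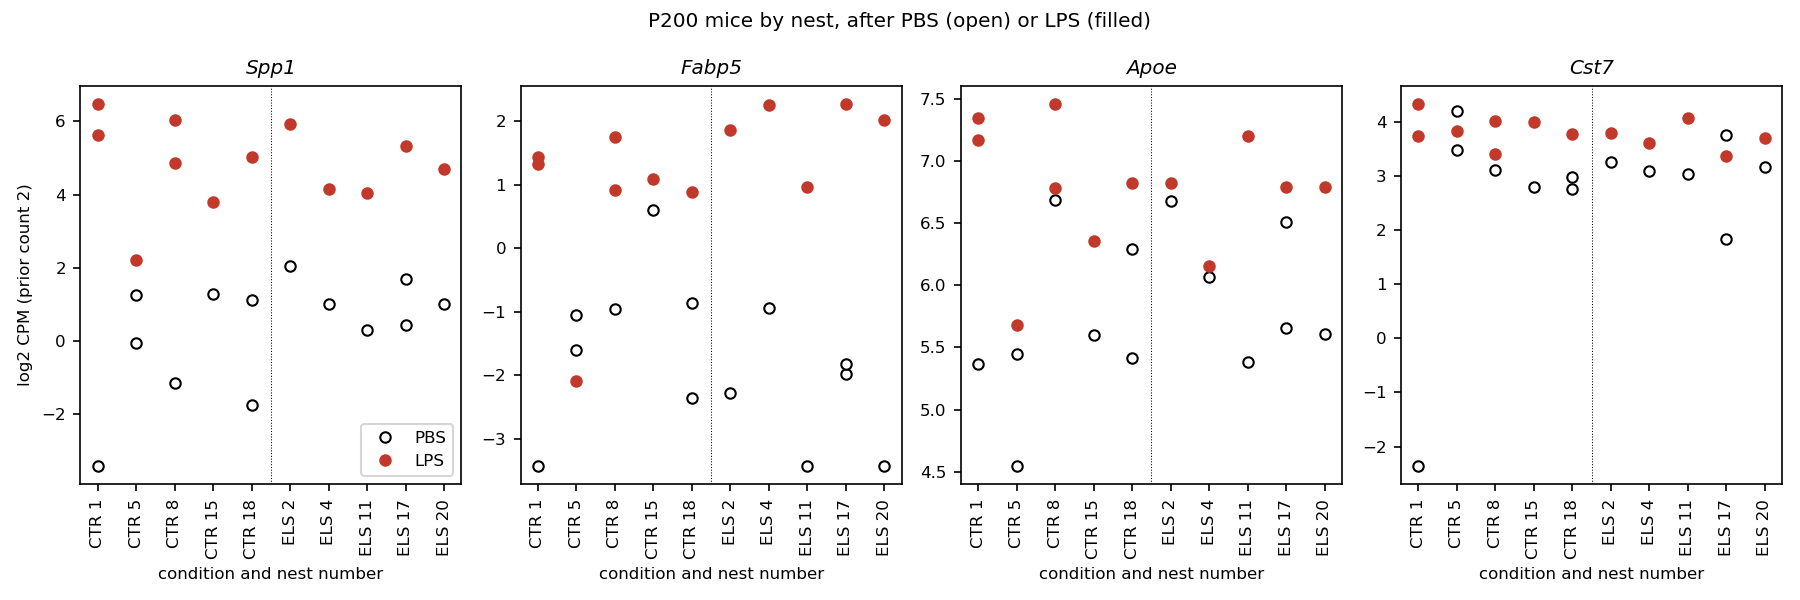
Levels of Spp1, Fabp5, Apoe and Cst7 in the P200 mice as log2 CPM (vertical axis) by nest (horizontal axis, CTR and ELS nests), with open points for PBS and filled points for LPS. Spp1 is higher after LPS in all 10 nests, and nest 5 is the CTR nest in which Fabp5 is not.

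Markers of blood cells were low in these sorted cells. The summed level of 5 monocyte markers was 0.71 to 11.0 CPM over all mice, and that of 5 neutrophil markers 0 to 3.68 CPM, with Ly6g and Retnlg at 0 in every mouse. None of the 5 neutrophil markers passed the filter on low values. Of the markers of other cells, 1 endothelial marker in CTR mice, and 1 monocyte and 2 astrocyte markers in ELS mice, were DEGs with higher levels after LPS, and their part in the rise of Spp1 and Fabp5 was not tested.

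The adult level after LPS was still below that of pups for the same 5 members, in comparisons that use the same P9 and LPS mice as those above. In CTR mice the log2 fold changes of P200-CTR-LPS against P9-CTR were -6.07 for Apoe, -6.28 for Lpl, -2.63 for Fabp5, -2.48 for Spp1 and -7.17 for Gpnmb, all DEGs (17.9% of all tested genes were DEGs with lower levels). In ELS mice they were -6.17, -6.26, -1.90, -3.07 and -7.14 in the same order (17.0% of all tested genes). Spp1 was the member whose CTR ranges met, as its highest LPS mouse had 88.9 CPM and its lowest pup 85.6 CPM. The remaining 4 in CTR and all 5 in ELS mice did not overlap, beside 10.9% and 5.35% of all tested genes. Gpnmb is counted in each of these comparisons, but it passed the filter on low values only through the pups. Its lower adult level was thus built into its being tested. For Gpnmb, 14 of 15 counts in P200-CTR-LPS came from mouse P200_8.3_CTR_LPS and all 11 counts in P200-ELS-LPS from mouse P200_11.2_ELS_LPS. Without the former a single count was left in 6 mice, a level 2214-fold below P9-CTR with a 95% counting interval of 397 to 87435. Without the latter the 4 other mice were at 0, at least 431-fold below P9-ELS.

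No member passed the test for ELS at P9, after PBS or after LPS. At P9 0 of 10 members were DEGs in P9-ELS against P9-CTR (0.0% of all tested genes), and the smallest adjusted p was 0.908 by edgeR, for Cd9. Cd9 was also the single member with an unadjusted p under 0.05 (0.0364), at a log2 difference of 0.23 (95% interval 0.02 to 0.44). At this unadjusted level 5.47% of all tested genes differed. With 1 mouse left out at a time the Cd9 difference was 0.085 to 0.26, and pup P9_19.2_ELS had the highest Cd9 level of its group (2634 CPM). The 95% intervals given here take the pups as independent, although mean Apoe differed between nests of a condition, and intervals over nests were not computed. For Apoe the log2 difference was -0.02 (-0.39 to 0.36), for Lpl -0.12 (-0.57 to 0.33), for Spp1 0.26 (-0.37 to 0.90) and for Gpnmb 0.30 (-0.71 to 1.3).

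In adults after PBS 0 of 10 members were DEGs between ELS and CTR (0.156% of all tested genes), and 2 had an unadjusted p under 0.05 (9.71% of all tested genes). Clec7a had 8.88, 9.44 and 13.2 CPM in P200-ELS-PBS and 11.8, 16.6 and 26.0 CPM in P200-CTR-PBS mice, with a single ELS mouse, P200_20.2_ELS_PBS, above the lowest CTR mouse. Its log2 difference was -0.86 (SE 0.27, 95% interval -1.38 to -0.33). By edgeR its p was 0.00251 unadjusted and 0.157 adjusted, and without mouse P200_20.2_ELS_PBS the difference was -0.95 (adjusted p = 0.207). Fabp5 was near its limit of detection in both groups, with a log2 difference of -1.35 (95% interval -2.47 to -0.24, unadjusted p = 0.0212 and adjusted p = 0.371, edgeR). This Fabp5 value was -0.73 without mouse P200_15.1_CTR_PBS and -1.999 without P200_4.1_ELS_PBS. For Spp1 the difference was 0.96 (-0.09 to 2.01). After LPS 0 of 10 members differed between ELS and CTR (0.0% of all tested genes), none at an unadjusted p under 0.05 (4.78% of all tested genes), and the log2 differences of Fabp5, Spp1 and Apoe were 0.90 (-0.02 to 1.83), -0.33 (-1.28 to 0.61) and -0.12 (-0.67 to 0.43). In each of these comparisons 0 members were called by DESeq2 and by limma as well, although the adjusted p of Clec7a after PBS was 0.0463 by DESeq2 at a log2 difference of -0.87, under the fold of a DEG, and up to 0.355 over all alternatives.

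**Figure D3:**
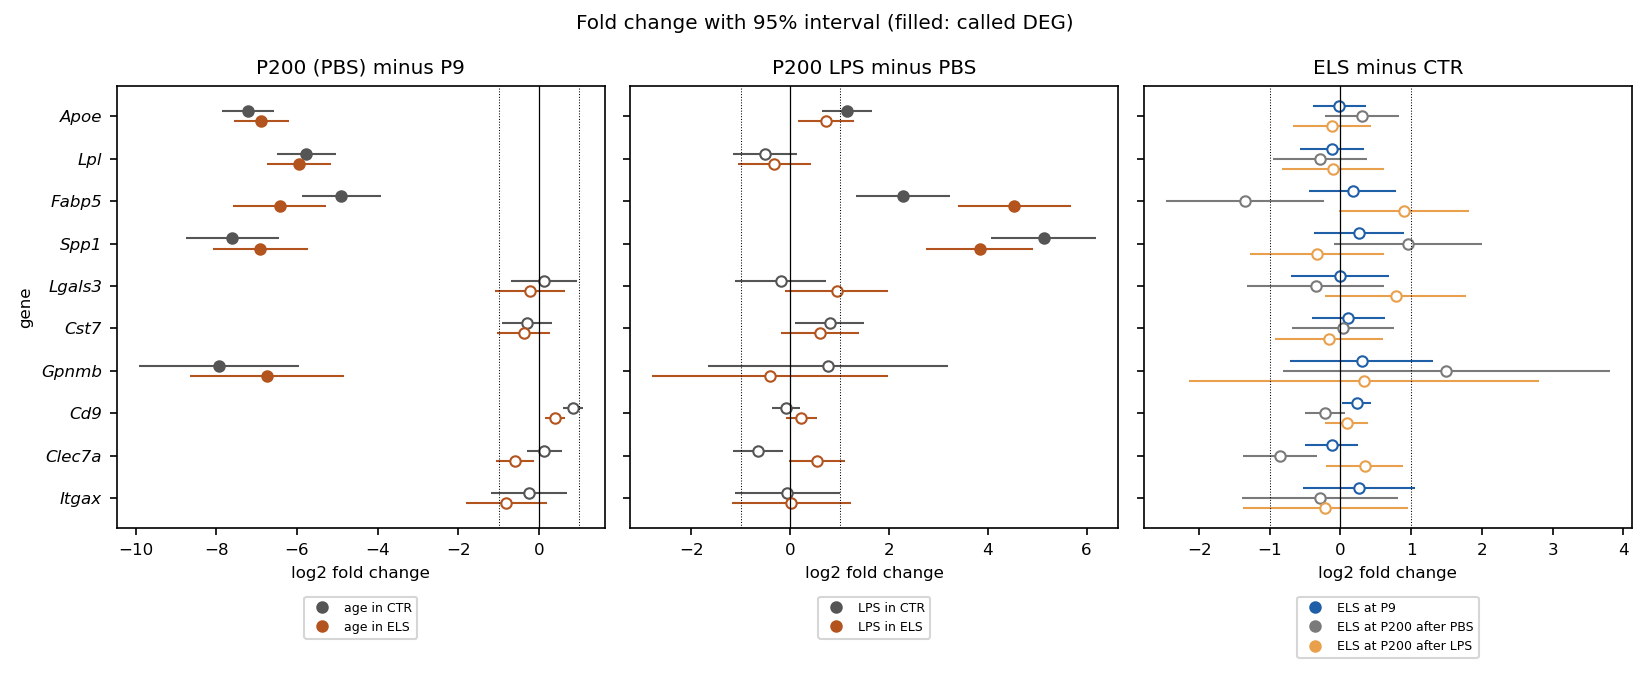
Log2 fold change (horizontal axis) with its 95% interval, for each gene (vertical axis), in 3 panels for age, LPS and ELS, where colours mark the groups compared, filled points mark DEGs and dotted lines mark a log2 fold change of 1 in either direction. The 5 filled members of the age panel lie below -4 in both conditions, Spp1 and Fabp5 are filled in both conditions of the LPS panel and Apoe in CTR alone, and no point is filled in the ELS panel.

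Whether age or LPS acted differently in ELS mice was tested as an interaction. For age 0 of 10 members passed (0.0299% of all tested genes), with the smallest adjusted p of 0.384 for Cd9 by edgeR. The unadjusted p was under 0.05 for Fabp5 (-1.52), Cd9 (-0.45) and Clec7a (-0.73), where the values are log2 differences between the age effects in ELS and CTR mice, beside 10.3% of all tested genes. With 1 mouse left out at a time the Cd9 value for age was -0.48 to -0.30. For LPS 0 of 10 members passed (0.0% of all tested genes). The unadjusted p was under 0.05 for Clec7a (1.2, 95% interval 0.45 to 1.957, adjusted p = 0.398, edgeR) and Fabp5 (2.26, 0.81 to 3.70, adjusted p = 0.404), beside 5.87% of all tested genes. The Fabp5 values rested on single mice. Without P200_15.1_CTR_PBS they were -0.90 for age and 1.63 for LPS, and without P200_4.1_ELS_PBS -2.17 and 2.90. That Apoe was a DEG after LPS in CTR and not in ELS mice was thus no difference by test, with an interaction of -0.42 (-1.18 to 0.34, adjusted p = 0.965, edgeR).

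Pups of the same condition differed between nests. Mean Apoe in the 5 P9-CTR nests was 8874 (nest 15), 8064 (nest 17), 8889 (nest 51), 7373 (nest 52) and 6557 CPM (nest 58). In the 4 P9-ELS nests it was 10754 CPM in nest 9 (8871 to 12087), 10434 CPM in nest 19 (9580 to 11817), 5484 CPM in nest 53 (3427 to 7207) and 5903 CPM in nest 55 (5230 to 6349). No pup of nests 9 and 19 was as low as the highest pup of nests 53 and 55. Lpl followed with means of 399, 383, 224 and 265 CPM in nests 9, 19, 53 and 55, and with 254 to 394 CPM in the CTR nests. Spp1 and Gpnmb had another order, with means of 199, 424, 219 and 258 CPM and of 10.8, 25.0, 21.7 and 23.6 CPM in the same ELS nests. The labels name no batch, and the nests were not tested against each other.

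**Figure D4:**
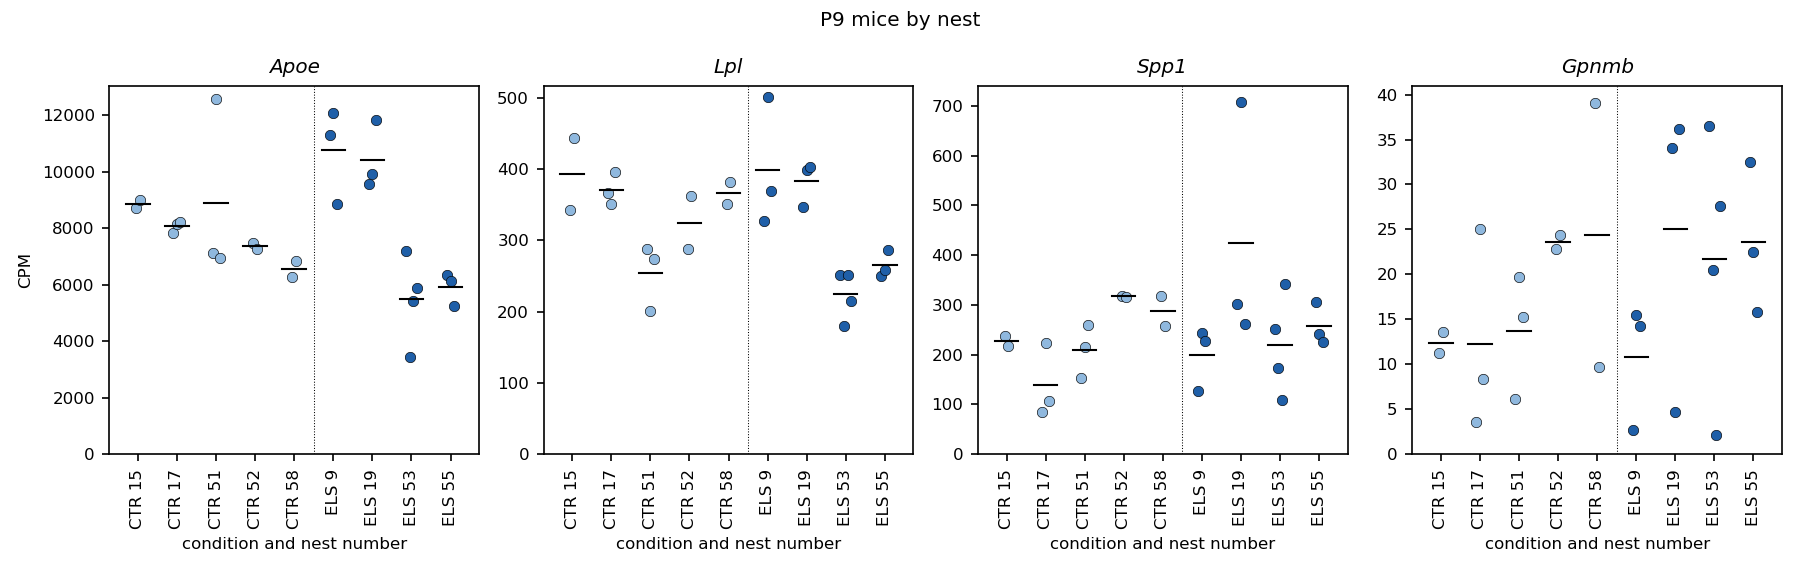
Levels of Apoe, Lpl, Spp1 and Gpnmb in P9 mice in CPM (vertical axis) by nest (horizontal axis), where points are pups and the bar is the mean of the nest. The ELS nests 9 and 19 have mean Apoe levels of 10754 and 10434 CPM, and the ELS nests 53 and 55 of 5484 and 5903 CPM.

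Levels of different members were compared as CPM per kilobase of the canonical transcript. In P9-CTR mice the order was Apoe (3686 ± 752, SD, n = 12), Cd9 (830.1 ± 125), Spp1 (101.3 ± 35.0), Lpl (81.9 ± 15.7), Clec7a (23.5 ± 5.12), Fabp5 (12.5 ± 2.04), Cst7 (10.1 ± 2.76), Gpnmb (4.33 ± 2.64), Lgals3 (2.79 ± 0.696) and Itgax (1.57 ± 0.623). Neighbours in this order overlapped except for Apoe and Cd9, Cd9 and Spp1, and Lpl and Clec7a. In P200-CTR-PBS mice Cd9 led with 1491 ± 187 CPM per kilobase (SD, n = 7), followed by Clec7a (25.7 ± 6.78) and Apoe (24.9 ± 12.3), and Spp1, Fabp5 and Gpnmb came last, and Cd9 and Clec7a were the single pair of neighbours without overlap. After LPS in CTR mice Apoe (54.9) and Spp1 (18.18) followed Cd9, while the ranges of Spp1 overlapped those of Apoe and Clec7a on either side.

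Lists of related genes gave the setting of these changes. Of 25 other disease-associated genes, 0 were DEGs with higher and 6 with lower adult levels in CTR mice, and 7 were lower in ELS mice (median log2 fold change -0.23 and -0.47), where 18.5% and 17.5% of all tested genes were lower. Among them were the receptor kinase Axl (-3.32) and the lysozyme Lyz2, which went from 457 ± 77.8 CPM (SD, n = 12) to 47.4 ± 14.1 CPM (SD, n = 7). After LPS 3 of the 25 were higher in each condition (6.02% and 4.69% of all tested genes), such as Csf1 (log2 fold change 1.37 in CTR), a growth factor of microglia, and Lyz2 (1.02). Of 12 other amoeboid genes, 8 in CTR and 9 in ELS mice were lower at P200 against the same shares of all genes. The largest changes were those of the secreted glutathione peroxidase Gpx3 (-9.08) and the growth factor Igf1 (-7.89). Their levels in P200-CTR-PBS mice were 0.346 ± 0.352 and 0.227 ± 0.260 CPM (SD, n = 7), with means under the 1 CPM of the filter. As with Gpnmb, a lower adult level may thus have been built into their being tested. After LPS none of the 12 was higher, and Igf1 (-3.19) and the protease Plau (-1.65) were lower in CTR mice (3.6% of all tested genes). The Igf1 means of 0.227 CPM after PBS and 0.0263 CPM after LPS were both under the filter level. Of 13 homeostatic genes, 4 in CTR and 3 in ELS mice were higher at P200 (7.98% and 8.68% of all tested genes), including Selplg (2.61), a ligand of selectins, and Tmem119 (2.01). After LPS 1 of the 13 was lower in each condition (3.6% and 3.17% of all tested genes), in CTR mice the transcription factor Sall1 (-1.73). With ELS 0 genes of these 3 lists were DEGs at P9, after PBS or after LPS.

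**Figure D5:**
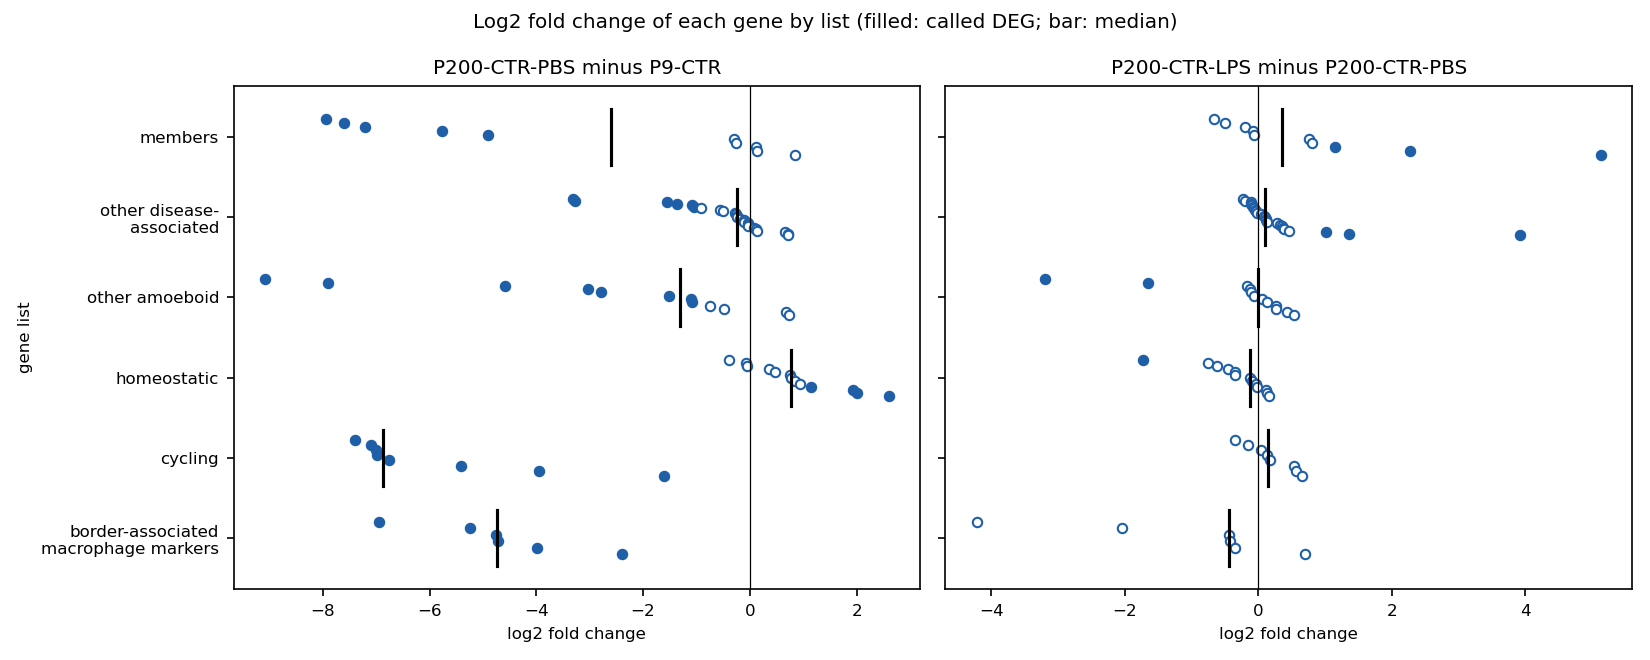
Log2 fold change (horizontal axis) of the 10 members and of the genes of 5 related lists (vertical axis) for age in CTR mice and for LPS in CTR mice, where points are genes, filled points are DEGs and bars are medians. For age the median of the members is -2.60, below those of the other disease-associated genes (-0.23) and the other amoeboid genes (-1.3), that of the cycling genes is -6.87, and that of the homeostatic genes is above 0. No member lies near the median of the members, as the closest are Fabp5 (-4.90) and Cst7 (-0.30).

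The genes whose log2 CPM was most like that of each member over the 50 mice are given as a description, with correlations that mostly follow the split into pups and adults. Apoe was closest to Hmgb2 (r = 0.983), Snx32 and Stmn1, Lpl to Sulf2 (0.974), Rrm1 and Mrc1, and Gpnmb to Stmn1 (0.942), Mrc1 and Hmgb2. Spp1 was closest to Tpm4 and Hnrnpa1 (both 0.944), Fabp5 to Hnrnpa1 (0.931), Lyz2 and Eef1g, and Cd9 to its antisense neighbour Gm26728 (0.989), Rgs10 and Alox5ap. The members that did not differ with age in CTR mice had weaker neighbours, with the highest r of 0.880 for Cst7 (Stk19), 0.806 for Lgals3 (Yaf2), 0.803 for Itgax (Cacfd1) and 0.715 for Clec7a (Atad2b).

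After the mean of each group was subtracted, 3 of 45 pairs of members varied together over the 50 mice by Pearson's r, with permutation p-values adjusted over the 45 pairs, and none of them by Spearman's rho. Cst7 and Lgals3 had r = 0.806 (permutation p = 0.00028, adjusted 0.00885) and rho = 0.480 (p = 0.00365, adjusted 0.0548), and r = 0.468 without the 2 mice farthest from the median of Cst7. Itgax and Lgals3 had r = 0.673 (permutation p = 0.00059, adjusted 0.00885) and rho = 0.438 (adjusted p = 0.0548), and r = 0.365 without the 2 mice farthest for Itgax. Spp1 and Fabp5 had r = 0.623 (permutation p = 0.00044, adjusted 0.00885) and rho = 0.396 (adjusted p = 0.0968), and r = 0.395 without the 2 mice farthest for Spp1. In P200 mice alone 4 pairs passed by r, 3 of them by rho as well, and in P9 mice alone 2 passed by r and 0 by rho. Spp1 and Fabp5 had r = 0.756 in P200 and -0.010 in P9 mice, and Cst7 and Lgals3 had r = 0.919 and 0.239. These differences between ages were not tested. Mouse P200_1.1_CTR_PBS held 2 counts of Cst7 and 0 of Lgals3, and over the 46 mice left without the 4 with few detected genes, where 4 pairs passed by r and 0 by rho, Cst7 and Lgals3 had r = 0.519 and Spp1 and Fabp5 r = 0.574. Itgax and Lgals3 had r = 0.591 in P9 mice and 0.797 in P200 mice, and r = 0.299 over those 46 mice, where its adjusted permutation p was 0.292. Mice of a nest are not fully independent.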

How the data were processed

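Poly-A mRNA of hippocampal microglia was sequenced for each of 50 mice, which are the replicates. The authors demultiplexed the reads with bcl2fastq (version 2.20), trimmed them with cutadapt (version 2.10), aligned them with STAR to GRCm39 and counted uniquely aligned reads in exons per gene with HTSeq (version 0.11.0). They deposited raw counts, 1 file for each mouse. The annotation release and the strand setting are not given in the sources used here. Reads carried no molecular identifiers.

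Groups and mouse numbers came from the labels. Counts were fitted in edgeR (version 4.0.16, R 4.3.3) with 1 mean for each of the 6 groups, TMM scaling and the quasi-likelihood test, over the 16696 of 53700 genes with 1 CPM or more in over 2 mice. P-values were two-sided and adjusted by Benjamini-Hochberg over all of these genes. Genes were called DEGs at adjusted p below 0.05 with a log2 fold change beyond 1 up or down, the thresholds of the study. SE is the absolute log2 fold change over the square root of the F statistic, and 95% intervals are normal intervals from this SE. Log2 CPM used a prior count of 2. Covariation between members used 100000 permutations of mice within groups. Total counts were 5152838 or more per mouse.

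The members and all lists were chosen with earlier results of these data known, so no list is independent support. Genes named from lists were the largest changes among DEGs with a mean log2 CPM of at least 1, and like genes the 3 of highest r with a mean log2 CPM of at least 3. Sequences and positions are from GRCm39, with Python 3.11.15. Alternatives were DESeq2 1.42.0, limma 3.58.1 voom with nest, other filters and scalings, single groups, summed nests and leaving out each mouse. The fit was tested on simulated data.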

Additional observations from a re-analysis of the deposited data

Results flagged for a closer look

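Single mice that lay apart from the rest of their group on the log2 CPM scale, by Dixon's test at the 95% level, were found in 9 of 40 groups of values tested (10 members in the 4 groups of 5 to 7 mice). Chance alone gives about 1 in 20. The groups of pups were too large for the test.

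Mouse P200_1.1_CTR_PBS, 1 of the 4 mice with few detected genes, was the lowest of its group for Lpl (1.02 CPM, others 4.17 to 11.6), Cst7 (0.102 CPM, others 6.68 to 18.296), Itgax (0 CPM, others 2.49 to 11.7) and Lgals3 (0 CPM, others 2.71 to 9.42). Mouse P200_20.2_ELS_PBS, also 1 of those 4, was the highest for Clec7a (13.2 CPM, others 8.88 to 10.3).

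Gpnmb was highest in mouse P200_8.3_CTR_LPS (0.682 CPM, others 0 to 0.0563), in P200_11.1_ELS_PBS (1.24 CPM, others 0) and in P200_11.2_ELS_LPS (0.680 CPM, others 0), which are 14, 24 and 11 counts. Mouse P200_5.3_CTR_LPS was the lowest of its group for Fabp5 (0.143 CPM, others 1.75 to 3.26), which is 2 counts.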

How the results depend on the processing

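Of 1130 member values under alternatives other than leaving out a mouse, 1125 kept their side of the threshold and their direction where called, 4 lost the call and 1 gained it. Of 5500 values with a mouse left out, 5499 kept it and 1 gained the call. None that was called changed direction. Leaving out 1 mouse at a time gave 3 to 4 called members for LPS in CTR mice and no other number than the main one for every other comparison. For LPS in CTR mice the lost calls were Apoe with counts summed per nest (0.92, adjusted p = 0.0371) and with the nest as a block (0.91, adjusted p = 0.0203), both under the fold of a DEG, and Fabp5 with the compared groups alone (2.22, adjusted p = 0.067) and with the block (2.104, adjusted p = 0.157). Cst7 passed with limma voom and nest as a random effect (1.51, adjusted p = 0.0122) and without mouse P200_5.2_CTR_PBS (1.11, adjusted p = 0.0311). The cause was not tested.

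Nest numbers were used as a replicate block for LPS. The labels do not define these numbers, and r between the deviations of the PBS and LPS mice of a nest was -0.144 to 0.186 over the 10 nests, with 4 of them below 0, so the numbers were not taken as pairs and the block is an alternative. With the block, 1 member (Spp1) was called for LPS in CTR mice in place of 3, and the count for ELS mice kept its value of 2. Depth limits Gpnmb and Fabp5 in adults, where group totals after PBS were between 9 and 55 counts.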
